A study of Homo sapiens with 4 samples.

Results

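Collagen genes were described in LN229 cells, an established human glioblastoma line, after silencing of RAB38. Members were all rows of the deposited expression table whose platform gene symbol had the form COL, a number, A and a number, which gave 43 genes of 22458 named genes. Each of the 43 had a single row, and all 43 matched a RefSeq gene table (assembly GRCh38.p14) by gene identifier. By structural class they comprised 11 fibrillar genes, 10 FACIT genes (fibril-associated collagens with interrupted triple helices), 6 basement membrane genes, 5 beaded filament genes (type VI), 3 network genes, 3 transmembrane genes, 2 multiplexin genes, 1 anchoring fibril gene (COL7A1) and 2 others (COL26A1 and COL28A1). The study asked how loss of RAB38, a small GTPase of membrane trafficking, alters the transcriptome of these cells. One group received a pool of nontargeting siRNAs (NT, n = 2 arrays) and the other a pool of siRNAs against RAB38 (siRAB38, n = 2 arrays). In both groups the cells, grown in 10% fetal bovine serum, were transfected without serum, given serum to 1.5% later, and lysed for total RNA 48 h after transfection. The RNA was hybridised to Affymetrix arrays, and the deposited values are on the log2 scale, so a difference of 1 is a change of 2-fold. The model is a single cell line on dishes, without stroma or vessels.

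Collagens are trimers of alpha chains wound into a triple helix. Fibrillar types form the cross-striated fibrils of tissues, FACIT types decorate the surface of those fibrils, type IV builds the sheet of basement membranes, type VI forms beaded microfilaments near cells, and multiplexins are proteoglycan collagens of basement membrane zones. The chains are hydroxylated, folded and assembled in the endoplasmic reticulum, carried out in large vesicles, trimmed outside the cell and crosslinked. Normal brain holds little fibrillar collagen outside its vessels and meninges, and glioblastoma is known for added collagen in its vessel walls and matrix.

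Promoter windows from RefSeq (GRCh38.p14), reaching from 250 bases before to 50 bases after a start, were searched for members, and 31 of the 43 genes had 1 or more, 43 windows in all. The windows below belong to COL15A1, COL6A3 and COL27A1, the members with the smallest unadjusted p in the comparison of the groups, to COL18A1, which shares its class with COL15A1, and to COL4A1, whose window is shared with its neighbour COL4A2. Each is written 5′ to 3′ on the strand of the gene, with capitals for the motifs found. Motifs were read on both strands with overlapping matches counted. The letters CCAAT stand for the CCAAT box and GGGCGG for the GC box. The TATA box was searched as TATAAA, and the E box was searched as CACGTG. The COL15A1 window (chr9:98943657-98943956, plus strand) held 1 GC box. The COL27A1 window (chr9:114155287-114155586, plus strand) held 3 GC boxes. COL18A1 had 2 windows, of which chr21:45404915-45405214 (plus strand) held 9 GC boxes, some of them overlapping, and chr21:45455272-45455571 (plus strand) held 1 GC box and 1 TATA box. The COL6A3 window (chr2:237414115-237414414, minus strand) held none of these motifs. The COL4A1 window (chr13:110307108-110307407, minus strand) held 1 CCAAT box and 2 GC boxes.
COL15A1: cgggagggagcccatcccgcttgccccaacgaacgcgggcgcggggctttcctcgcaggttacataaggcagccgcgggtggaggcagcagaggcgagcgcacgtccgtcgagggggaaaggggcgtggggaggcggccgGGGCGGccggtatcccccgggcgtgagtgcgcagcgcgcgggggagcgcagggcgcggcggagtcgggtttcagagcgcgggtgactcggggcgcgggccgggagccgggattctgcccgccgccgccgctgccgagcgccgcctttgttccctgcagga
COL27A1: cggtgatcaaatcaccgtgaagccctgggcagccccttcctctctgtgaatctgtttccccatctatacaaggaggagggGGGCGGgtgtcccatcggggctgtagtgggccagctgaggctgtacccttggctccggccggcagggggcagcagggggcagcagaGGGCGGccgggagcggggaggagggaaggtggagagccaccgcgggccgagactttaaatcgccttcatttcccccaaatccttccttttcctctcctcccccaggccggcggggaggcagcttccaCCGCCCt
COL18A1, upstream start: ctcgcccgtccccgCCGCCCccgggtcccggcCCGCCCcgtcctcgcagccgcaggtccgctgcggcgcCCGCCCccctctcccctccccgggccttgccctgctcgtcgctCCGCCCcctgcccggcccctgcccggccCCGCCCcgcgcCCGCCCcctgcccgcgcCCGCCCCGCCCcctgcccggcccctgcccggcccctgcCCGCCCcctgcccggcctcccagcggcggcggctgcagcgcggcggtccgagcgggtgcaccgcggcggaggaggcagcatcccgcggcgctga
COL18A1, downstream start: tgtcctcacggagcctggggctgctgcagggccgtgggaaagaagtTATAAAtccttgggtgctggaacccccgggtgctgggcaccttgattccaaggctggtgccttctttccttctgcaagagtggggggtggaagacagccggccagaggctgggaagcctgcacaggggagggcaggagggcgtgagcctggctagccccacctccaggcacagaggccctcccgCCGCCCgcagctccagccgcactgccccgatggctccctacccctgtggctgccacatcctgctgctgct
COL6A3: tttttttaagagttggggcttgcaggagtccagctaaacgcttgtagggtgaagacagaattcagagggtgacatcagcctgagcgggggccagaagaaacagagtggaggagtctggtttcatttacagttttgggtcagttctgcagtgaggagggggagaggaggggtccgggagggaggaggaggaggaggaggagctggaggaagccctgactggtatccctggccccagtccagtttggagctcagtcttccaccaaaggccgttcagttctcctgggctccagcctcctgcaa
COL4A1: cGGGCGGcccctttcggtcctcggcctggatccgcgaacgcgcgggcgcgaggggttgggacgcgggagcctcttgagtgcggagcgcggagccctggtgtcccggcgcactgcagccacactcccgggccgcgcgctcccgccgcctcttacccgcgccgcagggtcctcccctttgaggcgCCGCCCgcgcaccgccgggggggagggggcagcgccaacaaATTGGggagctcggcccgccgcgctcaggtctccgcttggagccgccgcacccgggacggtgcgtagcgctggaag

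The printed windows differed in base composition. GC content was 76% in COL15A1, 65.7% in COL27A1, 86.7% and 66.3% in the COL18A1 windows, 76.7% in COL4A1 and 56.3% in COL6A3. Over all 43 member windows a GC box was found in 55.8%, against 45% of 35116 windows of all genes. A CCAAT box was found in 30.2% of the member windows against 34.6% of all, a TATA box in 16.3% against 11.5%, and an E box in 0% against 7.26%. The median GC content was 64% in the member windows and 58.7% in all windows. A match is a description of the letters in the window and not a binding site.

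The label of the siRNA was checked first. RAB38 stood at 4.69 and 4.78 on the log2 scale with NT and at 2.52 and 3.43 with siRAB38, which left 29.6% of the NT level. The arrays had medians of 3.47 to 3.51 and correlated at 0.993 to 0.994 across genes. Glial and glioma markers were present, with VIM, CD44, S100B, NES and SOX2 well above the array medians, OLIG2 moderately above and GFAP below, and the summed linear level of all 7 markers was 4604 to 4606 in NT and 4641 to 4665 in siRAB38. Of 9 markers of other cell types, PTPRC, PECAM1, CDH5, CD14, EPCAM and CDH1 lay below the array medians, whereas the fibroblast markers LUM and DCN lay above the medians and the pericyte marker PDGFRB was near them. The summed linear level of these 9 markers was 185 to 197 in NT and 197 to 207 in siRAB38. It was mostly LUM, which had 6.93 and 7.06 on the log2 scale in NT against 7.08 and 7.13 in siRAB38. Among these 9, CDH5 was lower in both siRAB38 arrays, and the rest apart from LUM overlapped between the groups. Of the glial markers, S100B and CD44 were higher and SOX2 and VIM lower in both siRAB38 arrays, while GFAP, OLIG2 and NES overlapped. The part of these markers in the collagen values was not tested. In a bulk extract, a different share of cells expressing a gene and a different amount of its RNA per cell cannot be told apart. The sources do not say if the 2 arrays per group were separate cultures, and the p-values therefore reflect only array-to-array spread, possibly technical.

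More collagen genes lay above their NT level than below it, and the differences were small. Of the 43 genes, 30 had a log2 fold change above 0 (69.8%, against 51.5% of all genes) and 13 had one below 0. The count above 0 moved with single arrays. It was 33 without NT array 1, 22 without NT array 2, 27 without siRAB38 array 1 and 26 without siRAB38 array 2. The median log2 fold change was 0.05, against 0.01 over all genes, with the middle of the collagen distribution running from -0.02 to 0.17 (quartiles) and the extremes at -0.54 for COL6A3 and 0.45 for COL15A1. In limma no collagen gene reached the adjusted threshold of 0.05, and neither did any of the 22458 genes (0% called). The smallest adjusted p of a collagen gene was 0.720. At an unadjusted p under 0.05 in limma, 6 collagen genes were higher in siRAB38 (14.0% of the members, against 3.75% of all genes) and 1 was lower (2.33%, against 3.1% of all genes). The 6 were COL15A1, COL27A1, COL9A3, COL6A1, COL19A1 and COL11A1, and the single lower gene was COL6A3. These calls moved with single arrays: the higher count was 1 without NT array 1, 2 without NT array 2, 5 without siRAB38 array 1 and 3 without siRAB38 array 2, and the lower count was 0 without NT array 1 or without siRAB38 array 2 and 0 in the methods' t-test. COL15A1 kept an unadjusted p under 0.05 in every alternative. Collagen gene sets were among those the study examined on these same arrays, so the direction is not independent evidence.

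**Figure D1:**
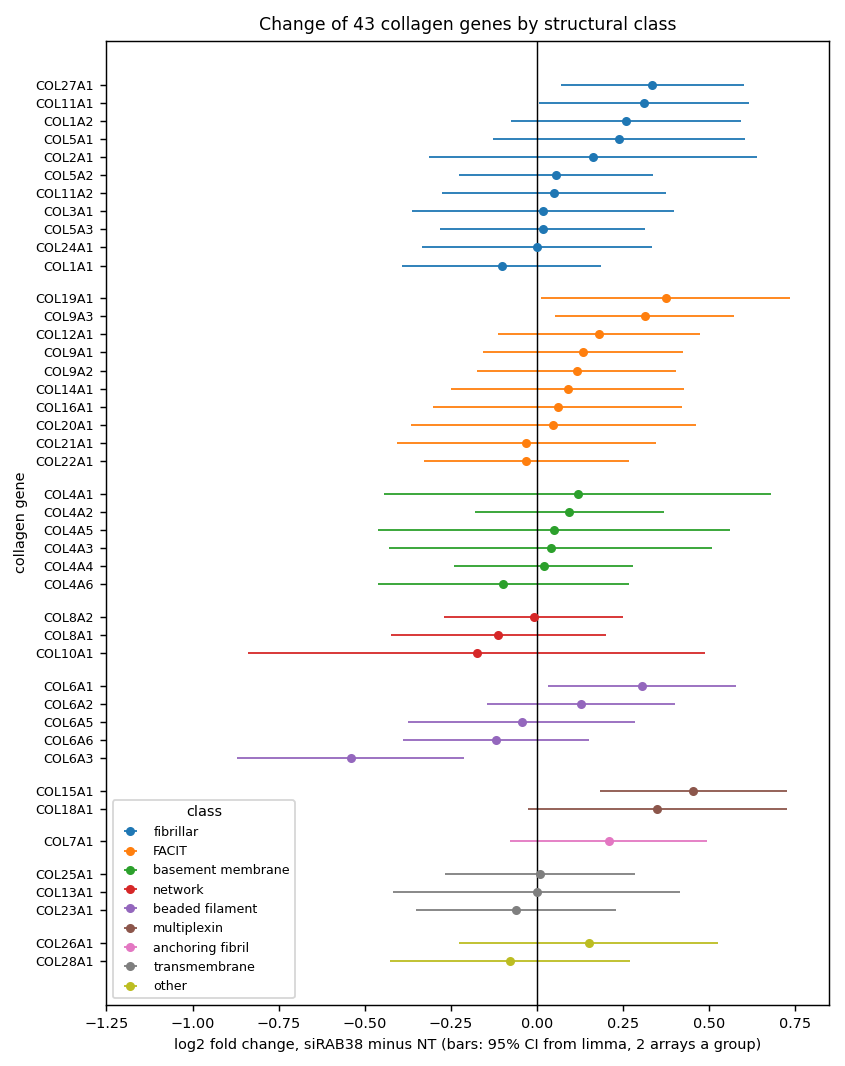
Log2 fold change of each of the 43 collagen genes (siRAB38 minus NT, x axis), grouped and coloured by structural class (y axis). Points are limma estimates from 2 arrays a group and bars their 95% confidence intervals, and the intervals of 7 genes leave out 0, with COL6A3 at -0.54 the only one of them below it.

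Without a model, both siRAB38 arrays lay above both NT arrays in 16 collagen genes (37.2%), where 18.8% of all genes did so. Both lay below in 3 genes, COL6A3, COL1A1 and COL6A6 (6.98%), where 17.2% of all genes did so. In the remaining 24 the groups overlapped. The genes were also divided by signal, with no test of the difference. Among the 20 collagen genes brighter than the median gene, 15 lay above 0, the median was 0.12 and 11 had both siRAB38 arrays above both NT arrays (55%, against 19.7% of all genes of that brightness). Among the 23 dimmer ones, 15 lay above 0, the median was 0.02 and 5 had both siRAB38 arrays above (21.7%, against 18% of all genes of that brightness). All 6 genes with an unadjusted p under 0.05 and a higher value belonged to the brighter set, and COL6A3 to the dimmer one.

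**Figure D2:**
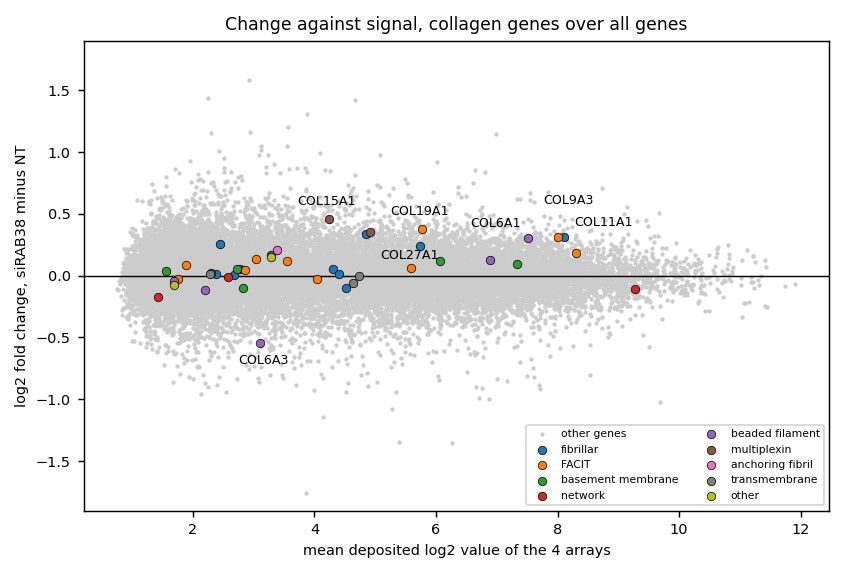
Log2 fold change (siRAB38 minus NT, y axis) against the mean deposited log2 value of the 4 arrays (x axis) for all genes in grey and the 43 collagen genes in colour by class. The 7 labelled genes had an unadjusted p under 0.05 in limma, and the brightest collagen gene, COL8A1, sat at -0.11.

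Both multiplexins were higher in both siRAB38 arrays, and COL15A1 had the largest difference upward of the 43 genes. COL15A1, the chain of type XV collagen, a proteoglycan that bridges fibrils beneath basement membranes, had log2 values of 4.03 and 4.0 in NT against 4.52 and 4.42 in siRAB38. The groups did not overlap and each was tight, with means of 4.02 ± 0.02 and 4.47 ± 0.07 (SD, n = 2 each). The log2 fold change was 0.45 (SE, the standard error, 0.11; 95% CI, the confidence interval, 0.18 to 0.73), or 137% of the NT level, with an unadjusted p = 0.00745 and an adjusted p = 0.720 in limma. COL18A1, whose cleaved C-terminal fragment is endostatin, had 4.57 and 4.91 in NT against 5.12 and 5.06 in siRAB38. Both siRAB38 arrays were above both NT arrays, although the NT arrays lay apart. Its log2 fold change was 0.35 (SE 0.15, 95% CI -0.03 to 0.73, unadjusted p = 0.0625 in limma), and it ran from 0.18 to 0.52 over the fits without 1 array, against 0.40 to 0.51 for COL15A1.

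Among fibrillar collagens, 10 of 11 had a log2 fold change above 0 (against 51.5% of all genes), and the median was 0.06. In 4 of the 11 both siRAB38 arrays were above both NT arrays (against 18.8% of all genes), and in 1, COL1A1, both were below (against 17.2%). COL27A1, a fibrillar chain best known from cartilage, had 4.68 and 4.67 in NT against 4.97 and 5.05 in siRAB38. The NT arrays were nearly equal and the siRAB38 arrays were both higher. Its log2 fold change was 0.34 (SE 0.10, 95% CI 0.07 to 0.60, unadjusted p = 0.0224 and adjusted p = 0.720 in limma), 126% of the NT level. COL11A1, a minor chain that sets the diameter of cartilage fibrils, had 7.93 and 7.96 in NT against 8.15 and 8.36 in siRAB38. The groups did not overlap, with siRAB38 array 2 the higher. Its log2 fold change was 0.31 (SE 0.12, 95% CI 0.01 to 0.62, unadjusted p = 0.0463 in limma), and it was 0.21 to 0.41 over the fits without 1 array. COL11A2, its partner, had 4.41 and 4.16 in NT against 4.35 and 4.32 in siRAB38, so the groups overlapped.

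The chains of type I collagen, the main collagen of bone and skin, lay on opposite sides of 0. COL1A2 had 2.36 and 2.27 in NT against 2.45 and 2.70 in siRAB38, a log2 fold change of 0.26 (SE 0.13). COL1A1 had 4.48 and 4.64 in NT against 4.47 and 4.45 in siRAB38, a log2 fold change of -0.10 (SE 0.11). Neither had an unadjusted p under 0.05, and NT array 1 of COL1A1 was close to the siRAB38 arrays. Type V collagen starts the growth of type I fibrils. COL5A1 had 5.70 and 5.55 in NT against 5.72 and 6.01 in siRAB38 (log2 fold change 0.24, SE 0.14), with siRAB38 array 1 only just above NT array 1. COL5A2 and COL5A3 overlapped between the groups, with log2 fold changes of 0.06 and 0.02.

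**Figure D3:**
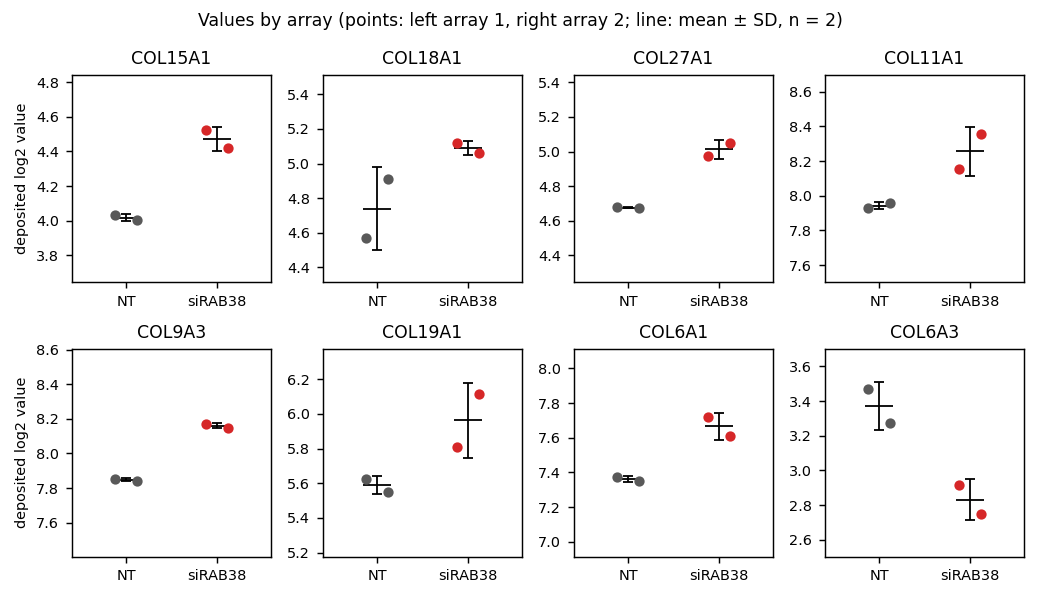
Deposited log2 values (y axis) of 8 collagen genes in the 2 NT and 2 siRAB38 arrays (x axis), each panel with its own range of equal span, points for arrays and lines for the mean ± SD (n = 2). The siRAB38 arrays lie above the NT arrays in 7 panels and below in the COL6A3 panel, and the NT arrays of COL18A1 (4.57 and 4.91) are spread farther than those of the other 7 genes.

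Among FACIT collagens, 8 of 10 lay above 0 (against 51.5% of all genes), the median was 0.10 on the log2 scale, and 5 had both siRAB38 arrays above both NT arrays (against 18.8%). COL9A3, a chain of the type IX collagen that coats type II fibrils in cartilage, had 7.85 and 7.84 in NT against 8.17 and 8.15 in siRAB38. The arrays of each group lay close together, with SDs of 0.01 and 0.02 (n = 2 each). Its log2 fold change was 0.31 (SE 0.10, 95% CI 0.05 to 0.57, unadjusted p = 0.0265 and adjusted p = 0.720 in limma), and it stayed between 0.30 and 0.32 in the fits without 1 array. The other chains of type IX were also higher in both siRAB38 arrays. COL9A1 had 2.89 and 3.06 in NT against 3.10 and 3.11 in siRAB38. COL9A2 had 3.56 and 3.42 in NT against 3.57 and 3.65 in siRAB38. Their log2 fold changes were 0.13 and 0.12 (SE 0.11 each), and neither had an unadjusted p under 0.05.

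COL19A1, a FACIT chain found at basement membrane zones, had 5.63 and 5.55 in NT against 5.81 and 6.12 in siRAB38. Both siRAB38 arrays were higher, and they differed from each other more than the NT arrays did. The log2 fold change was 0.37 (SE 0.14, 95% CI 0.01 to 0.73, unadjusted p = 0.0445 in limma), and it ran from 0.22 to 0.53 in the fits without 1 array. COL12A1, which binds the surface of type I fibrils, had 8.14 and 8.29 in NT against 8.35 and 8.44 in siRAB38, a log2 fold change of 0.18 (SE 0.12). Its groups did not overlap, but its 95% CI included 0.

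Type VI collagen held both the lowest log2 fold change of the 43 genes and one of the 6 higher genes. The type VI trimer classically joins the chains of COL6A1, COL6A2 and COL6A3 and forms beaded filaments between cells and basement membranes. COL6A1 had 7.37 and 7.35 in NT against 7.72 and 7.61 in siRAB38. COL6A2 had 6.87 and 6.79 in NT against 6.93 and 6.99 in siRAB38. COL6A3 had 3.47 and 3.27 in NT against 2.92 and 2.75 in siRAB38. The first pair was higher in both siRAB38 arrays and COL6A3 was lower in both, with no overlap in any of them. For COL6A1 the log2 fold change was 0.31 (SE 0.11, 95% CI 0.03 to 0.58, unadjusted p = 0.0346 in limma), or 124% of the NT level, and for COL6A2 it was 0.13 (SE 0.11, unadjusted p = 0.281). For COL6A3 it was -0.54 (SE 0.13, 95% CI -0.87 to -0.21, unadjusted p = 0.00818 and adjusted p = 0.720 in limma), or 68.7% of the NT level, and it was -0.64 to -0.44 in the fits without 1 array.

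The spread of the type VI chains was also read within each array. COL6A1 minus COL6A3 was 3.90 and 4.07 in NT against 4.81 and 4.86 in siRAB38, where the size of the difference depends on the probes and only its change is read. The change was 0.85 on the log2 scale, and COL6A2 minus COL6A3 changed by 0.67. Both differences were larger in both siRAB38 arrays than in either NT array. A two-sided exact permutation test gave p = 0.333 for each, the smallest that 2 arrays against 2 allow. The separation was already fixed by the chains themselves, with COL6A1 and COL6A2 higher and COL6A3 lower in both siRAB38 arrays. It adds no evidence. COL6A1 minus COL6A2 changed by 0.18, and its arrays did not overlap either (exact permutation p = 0.333). These differences were 3 of 10 chosen pairs compared, none of which could reach a lower p. The pairs joined partner chains, except COL15A1 with COL18A1, which share a class but are of different types. The differences of that pair overlapped between the groups. The 10 pairs share some chains and leave out other partner pairs, such as COL8A1 with COL8A2. The share of separated differences over all pairs of genes was not computed. In 8 of the 10 the differences did not overlap between the groups, so such a separation was not particular to type VI, and the changes of those 8 ran from 0.18 to 0.85 in size. The other 5 of them were COL1A2 minus COL1A1 (0.36), COL11A1 minus COL11A2 (0.26), COL9A3 minus COL9A1 (0.18), COL9A3 minus COL9A2 (0.20) and COL5A1 minus COL5A2 (0.18). For COL1A2 minus COL1A1 too, the separation was fixed by the chains, which differed in opposite directions without overlap. COL6A3 was one of the dimmer rows, below the array medians in all 4 arrays. COL6A5 and COL6A6, alternatives to the COL6A3 chain, were dimmer still, with COL6A6 lower in both siRAB38 arrays by 0.12 and COL6A5 overlapping.

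Type IV chains build the basement membrane sheet. In 4 of the 6 the arrays of the groups overlapped, as they did in 14376 of all 22458 genes. COL4A1 had 6.20 and 5.80 in NT against 5.88 and 6.37 in siRAB38. COL4A2 had 7.30 and 7.28 in NT against 7.32 and 7.44 in siRAB38. The log2 fold change of COL4A1 was 0.12 with a standard error of 0.22, and it ran from -0.13 to 0.36 in the fits without 1 array, so its sign rested on single arrays. NT array 1 and siRAB38 array 2 were the higher ones of their groups in COL4A1, COL4A3 and COL4A5. In these 3 genes the arrays of a group differed more than the group means did. COL4A2 and COL4A4 had both siRAB38 arrays above both NT arrays (2 of 6, against 18.8% of all genes), with log2 fold changes of 0.09 and 0.02. Over the 6 chains the median log2 fold change was 0.05 and none had an unadjusted p under 0.05, against 3.75% of all genes in the upward direction.

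The type IV genes lie head to head in pairs. The COL4A1 and COL4A2 starts are 127 bases apart on opposite strands of chromosome 13, and their promoter windows overlap by 226 bases of the COL4A1 sequence printed above. The windows of COL4A4 and COL4A3 overlap by 82 bases. COL4A6 has 2 windows, of which one overlaps that of COL4A5 by 121 bases and the other by 0. Log2 fold changes were 0.12 and 0.09 for the first pair and 0.02 and 0.04 for the COL4A4 and COL4A3 pair. For COL4A6 and COL4A5 they were -0.10 and 0.05. The intervals of all 6 included 0.

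**Figure D4:**
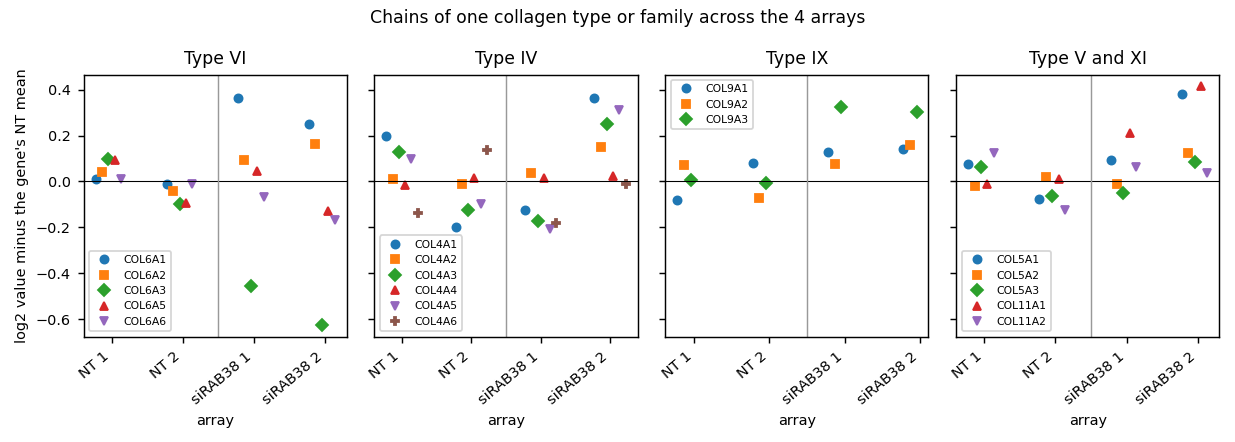
Log2 value minus the NT mean of each gene (y axis) for chains of types VI, IV, IX and V with XI in the 4 arrays (x axis), markers for genes. COL6A1 and COL6A2 lie above 0 and COL6A3 below it in both siRAB38 arrays, and COL4A1, COL4A3 and COL4A5 lie higher in NT array 1 and siRAB38 array 2 than in the other 2 arrays.

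The network collagens were the only class named by the rule with no member above 0. COL8A1, a short chain of vessel walls and the corneal Descemet membrane, had 9.43 and 9.24 in NT against 9.17 and 9.28 in siRAB38. The groups overlapped, and the log2 fold change was -0.11 (SE 0.12). COL8A2, its partner, and COL10A1, the collagen of hypertrophic cartilage, had log2 fold changes of -0.01 and -0.17, and both were dim and overlapping. In COL10A1, NT array 2 and siRAB38 array 1 held an identical value of 1.17.

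Of the remaining classes, COL7A1, the anchoring fibril collagen that ties epithelium to stroma, had 3.35 and 3.22 in NT against 3.45 and 3.54 in siRAB38. The groups did not overlap, and the log2 fold change was 0.21 (SE 0.11, unadjusted p = 0.119 in limma). The transmembrane collagens COL13A1, COL23A1 and COL25A1 all overlapped between the groups, with log2 fold changes of -0.00, -0.06 and 0.01. COL26A1 had a log2 fold change of 0.15 and overlapping arrays. The 14 members outside the naming rule had log2 fold changes of -0.17 to 0.16, 7 above and 7 below 0. Their smallest unadjusted p in limma was 0.312. In 13 of them the groups overlapped (against 14376 of all 22458 genes), COL6A6 being the exception. The rule took the members with the smallest p, so small changes and overlap among the rest follow in part from that choice.

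The arrays of a group were not alike across collagens. The median deviation of the 43 genes from their own 4-array means was -0.02 in NT array 1, -0.09 in NT array 2, 0.01 in siRAB38 array 1 and 0.08 in siRAB38 array 2. NT array 2 held the lowest value in 20 genes and siRAB38 array 2 the highest in 19. The other NT array was highest in 12 genes and lowest in 9, and the other siRAB38 array highest in 7 and lowest in 6. The collagen median log2 fold change was accordingly 0.11 without NT array 1, 0.12 without siRAB38 array 1, 0.03 without NT array 2 and 0.04 without siRAB38 array 2. It was above 0 in each of these 4 fits, but the count of genes above 0 fell to 22 of 43 without NT array 2. The median gap between the replicate arrays of a collagen gene was 0.157 in NT and 0.110 in siRAB38, against 0.136 and 0.157 over all genes.

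**Figure D5:**
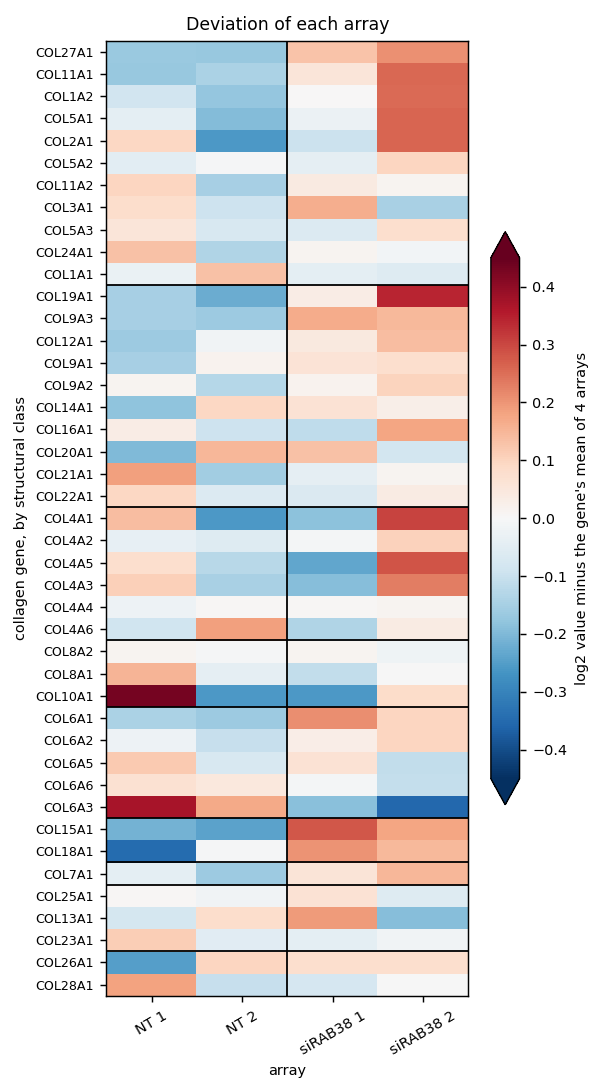
Log2 value minus the mean of the gene over 4 arrays (colour, clipped at the ends of the scale) for 43 collagen genes by structural class (y axis) in the NT and siRAB38 arrays (x axis). NT array 2 is mostly blue, with the lowest value of 20 genes, and siRAB38 array 2 mostly red, with the highest value of 19.

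Members with both siRAB38 arrays above both NT arrays included all 3 collagen genes of chromosome 21 (COL18A1, COL6A1 and COL6A2), against 20.1% of the 288 genes measured there. COL6A1 and COL6A2 are neighbours with 0 protein-coding genes between them, and COL18A1 is separated from COL6A1 by 1. They also included all 3 members on chromosome 9 (COL5A1, COL15A1 and COL27A1), against 20.1% of the 882 genes there, but these lie far apart, with 92 and 213 protein-coding genes between neighbouring members. COL6A3, the gene with the opposite sign, lies on chromosome 2. On the other chromosomes with 3 or more members the counts were 3 of 6 on chromosome 6 (against 19.3% of all genes there), 2 of 5 on chromosome 1 (19.5%), 1 of 5 on chromosome 2 (20.3%), 1 of 4 on chromosome 3 (18%) and 1 of 3 on chromosome 7 (19.1%). Of 7 pairs of members with 0 protein-coding genes between them, both genes were higher in both siRAB38 arrays in 2. These were COL6A1 with COL6A2 and COL19A1 with COL9A1, and in the other 5 pairs at least 1 gene overlapped between the groups. The share over all neighbouring gene pairs was not computed, so nothing is read from this count.

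Genes of collagen synthesis and fibril assembly lay evenly on both sides of 0. Of 51 genes listed for hydroxylation, folding, export, propeptide cleavage, crosslinking and fibril regulation, 50 were measured (6 of them fibril regulators, among which LUM and DCN also served as fibroblast markers), with 25 above and 25 below 0 and a median of -0.00 on the log2 scale. At an unadjusted p under 0.05, 0 were higher and 2 were lower (against 3.75% and 3.1% of all genes), and none passed the adjusted threshold. KLHL12, the adaptor of the ubiquitin ligase that enlarges COPII vesicles for procollagen export, had 6.45 and 6.54 in NT against 6.0 and 5.95 in siRAB38. Both siRAB38 arrays were lower, with a log2 fold change of -0.52 (SE 0.11, unadjusted p = 0.00412 and adjusted p = 0.720 in limma), 69.7% of the NT level. P4HA1, a catalytic subunit of the prolyl 4-hydroxylase that stabilises the triple helix, had 7.22 and 7.18 in NT against 6.78 and 6.91 in siRAB38. Its arrays did not overlap either, and the log2 fold change was -0.36 (SE 0.11, unadjusted p = 0.0215). Without NT array 1, the number of these genes with an unadjusted p under 0.05 was 1.

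The next genes by p lay on both sides. FKBP14, a prolyl isomerase of the endoplasmic reticulum, had 6.09 and 5.87 in NT against 5.69 and 5.65 in siRAB38, a log2 fold change of -0.31 (SE 0.12). LOXL4, a crosslinking lysyl oxidase, had 3.04 and 2.84 in NT against 3.29 and 3.18 in siRAB38, a log2 fold change of 0.29 (SE 0.12). Neither overlapped between the groups and neither reached an unadjusted p of 0.05. In the whole list 9 genes had both siRAB38 arrays above (18%) and 8 both below (16%), near the 18.8% and 17.2% of all genes.

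Collagen receptors were counted in the same way. All 11 were measured, 7 above and 4 below 0 with a median of 0.02 on the log2 scale, and 0 had an unadjusted p under 0.05 (against 3.75% higher and 3.1% lower of all genes), from which nothing is read in so short a list. DDR1, a receptor tyrosine kinase that collagen activates, had 7.23 and 7.07 in NT against 7.37 and 7.24 in siRAB38. It was the 1 receptor of 11 with both siRAB38 arrays above both NT arrays, against 18.8% of all genes. Its log2 fold change was 0.16 (SE 0.12). The integrin chains ITGA11 and ITGA2 and the platelet receptor GP6 had log2 fold changes of 0.28 (SE 0.23), 0.14 (SE 0.19) and -0.23 (SE 0.20).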

How the data were processed

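Total RNA of LN229 cells was labelled with biotin and hybridised to Affymetrix arrays, 2 for NT and 2 for siRAB38. The authors deposited log2 values made with RMA, which corrects background, normalizes all arrays to a shared distribution and summarises probes to 1 value per row. A shared distribution hides any shift common to most genes. The submitters' processing notes name affy 1.60.0, R 3.5.1 and RMA. The definition of probe rows and a genome build are not given in the sources used here. The table holds 23786 rows, of which 22458 have 1 gene symbol in the platform annotation, 0 have several and 1328 have none, and the last were left out. Values ran from 0.41 to 12.0. The number of arrays limits the precision.

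Groups were taken from the sample titles and siRNA labels. For the arrays the methods refer to earlier work, and the tests they name are for the study in general, so the use of limma was a choice made here. The deposited log2 values of all named genes were compared (siRAB38 minus NT) with limma 3.58.1 in R 4.3.3, by lmFit and then eBayes, with no trend and 3.15 prior degrees of freedom,, with Benjamini-Hochberg adjustment over the 22458 genes and no filter on signal. The fit was tested on simulated data. Members, lists and subgroups were chosen with earlier results of these data known. Named collagens were those with an unadjusted p under 0.05, the 12 with the smallest p, the 8 with the highest mean value, the smallest p of each class and partner chains. Up to 4 genes with the smallest p were named from each pathway list. COL6A5, COL6A6, COL10A1, COL13A1 and COL25A1 were named outside this rule after their values were seen. Within-array differences of partner chains, and of COL15A1 with COL18A1, were compared with exact permutation tests. The 13 alternatives were of normalization, the variance prior, the rows used, a filter on dim genes, weights per array, a block for the replicate number, the choice of test and each array left out.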

Additional observations from a re-analysis of the deposited data

How the results depend on the processing

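No collagen gene passed the adjusted threshold in any of the 13 alternatives. In limma, 6 collagen genes were higher at an unadjusted p under 0.05, a count that moved with single arrays. It was 3 with the replicate block, 4 in the methods' t-test and 5 with each array centred on its median. The lower count was 0 in the methods' t-test and 0 to 1 without 1 array, against 1. The median log2 fold change was 0.034 to 0.124 without 1 array and 0.037 after quantile normalization again, against 0.051. The count of collagen synthesis genes at an unadjusted p under 0.05 was 2 to 3 in the alternatives that kept all 4 arrays. The sources do not say if same-numbered arrays were handled together. Over all named genes, NT array 1 minus NT array 2 correlated at -0.05 with siRAB38 array 1 minus siRAB38 array 2. That value cannot decide if the arrays were paired, because a shared batch could touch only some genes. With the replicate block, COL15A1, COL27A1, COL9A3 and COL6A3 kept an unadjusted p under 0.05.

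Signs turned in 11 of 38 named genes, always on leaving out 1 array. Their ranges were -0.072 to 0.17 for COL11A2, -0.14 to 0.022 for COL23A1, -0.021 to 0.32 for COL26A1, -0.13 to 0.36 for COL4A1, -0.17 to 0.25 for COL4A3, -0.21 to 0.31 for COL4A5, -0.23 to 0.0402 for COL4A6, -0.0125 to 0.12 for COL5A2, -0.051 to 0.085 for COL5A3, -0.025 to 0.0084 for COL8A2 and -0.091 to 0.37 for ITGA2. The other 478 of 493 values kept their sign. Counts of groups that do not overlap were not recomputed with 1 array left out, because 1 array against 2 separates more often. An array left alone in its group was assumed to vary like the other group. Without NT array 1, the share of all genes higher at an unadjusted p under 0.05 was 2.24%.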
